A study of Rattus norvegicus with 48 samples.

Results

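miR-22-3p and miR-22-5p, the mature strands cut from the rat mir-22 hairpin, were followed through the livers of 48 male Sprague-Dawley rats given thioacetamide (TAA) or vehicle. The 2 strands were taken by name from 664 mature miRNAs with at least 1 read, and both were among the 301 miRNAs that were tested. TAA is a sulphur-containing hepatotoxicant that injures liver cells after its oxidation in the liver. Rats received it once daily at a low (4.5 mg/kg), middle (15 mg/kg) or high (45 mg/kg) dose for 3, 7, 14 or 28 days (written 3-d and so on), with vehicle-treated control rats at every time point. This gave 12 treatment conditions and 4 control groups with 3 rats each, and each library came from the liver of 1 rat killed a day after its last dose. Whole liver tissue was sequenced, so a change in the number of cells of a type and a change in the RNA per cell cannot be told apart. Every comparison had 3 rats on each side unless it is described as an average over time points.

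Small hairpins in a primary transcript are trimmed by Drosha in the nucleus and by Dicer in the cytoplasm into a short duplex. One strand of that duplex is usually loaded into an Argonaute protein and guides it to messenger RNAs through the seed, bases 2 to 8 of the miRNA, while the other strand is mostly degraded. miR-22 is abundant in liver and heart and has been studied as a regulator of hepatic lipid metabolism and as a suppressor or promoter of tumours depending on tissue.

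The sequences are shown because the comparisons below turn on the strands of 1 hairpin, and they were taken from RefSeq (GRCr8). Capitals mark the seed in the mature strands and both mature arms in the hairpin.
rno-miR-22-5p: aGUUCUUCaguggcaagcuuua
rno-miR-22-3p: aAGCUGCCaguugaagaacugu
rno-mir-22: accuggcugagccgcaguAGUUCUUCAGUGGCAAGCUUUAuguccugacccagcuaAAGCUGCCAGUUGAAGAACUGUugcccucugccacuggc

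The hairpin is 95 bases long and lies on the forward strand at chr10:60805331-60805425 of GRCr8, where it is annotated as the miRNA gene Mir22. The 5p arm occupies hairpin bases 19 to 40 and the 3p arm bases 57 to 78. The longest run of Watson-Crick complementarity between the mature strands was 9 bases, AGUUCUUCA at bases 1 to 9 of miR-22-5p against UGAAGAACU at bases 12 to 20 of miR-22-3p, so this run includes the whole seed of the 5p strand. Neither seed was found in any of 692 other rat mature miRNAs, and the closest of these differed from miR-22-3p or miR-22-5p at 10 bases. The strands are therefore the sole carriers of their seeds in the reference set compared here. Among neighbouring RefSeq genes, Mir6326 lies on one side of Mir22 between it and the protein-coding gene Wdr81, and Tlcd2 lies on the other side. miR-6326 had 5 reads in all, found in 3 libraries, and was too low to be tested.

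Libraries held between 293331 and 14906217 counted reads (median 10237542). The lowest total belonged to control 3-d replicate 1, and every other library had at least 4829217 reads. That library also stood apart in its makeup. Its summed level of 5 red blood cell miRNAs (miR-451-5p, miR-451-3p, miR-144-3p, miR-144-5p and miR-486) was 98080 RPM (reads scaled to a common library total), against 872 to 8795 RPM in the other 47 libraries, and its sum of 6 hepatocyte miRNAs, miR-122-5p among them, was 152241 RPM against 273092 to 377386 RPM. Liver identity was thus plain in the hepatocyte markers of 47 libraries. The part of the red blood cell signal in the levels below was not tested, and each result that rests on control 3-d replicate 1 is given with and without it.

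miR-22-3p was one of the dominant miRNAs of these livers. It accounted for a mean of 17.1% of all counted reads and ranked 2 of 664 by mean RPM, behind miR-192-5p with 21.1% and ahead of miR-26a-5p with 6.39%. miR-22-5p had a mean of 137 RPM and ranked 122. Counts of miR-22-3p were between 28168 and 2895166 per library, and those of miR-22-5p were between 31 and 2182, so the minor strand was counted with far less precision.

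In the 3 controls of 3-d, miR-22-3p took 9.60% (95% Wilson interval 9.50% to 9.71%, counting error only), 18.6% and 18.2% of the reads, and the low value was control 3-d replicate 1. In the other control groups the shares were 19.6%, 18.3% and 18.4% at 7-d, 18.8%, 20.1% and 19.9% at 14-d, and 20.1%, 19.1% and 18.2% at 28-d. The 11 remaining control livers therefore lay in a narrow band from 18.2% to 20.1%. With the low dose, the shares were 16.2%, 15.3% and 15.1% at 3-d, 14.6%, 15.6% and 15.3% at 7-d, 16.3%, 15.1% and 15.2% at 14-d, and 16.6%, 14.9% and 16.9% at 28-d. All 12 low-dose livers were below those 11 controls, in read shares without normalization and pooled over time points. After upper quartile normalization the pooled groups overlapped. For example, low-dose 14-d replicate 40 held 201261 normalized RPM, above control 3-d replicate 3 with 166030. How many other miRNAs separate in read shares in this pooled way was not tested. Per time point, 11% (3-d), 22.9% (7-d), 17.3% (14-d) and 17.6% (28-d) of tested miRNAs had every low-dose rat below every control in normalized RPM. The 3-d value includes control 3-d replicate 1. With the middle dose, the shares were 17.9%, 17.7% and 19.7% at 3-d, 16.7%, 16.1% and 17.4% at 7-d, 16.6%, 16.1% and 16.8% at 14-d, and 13.5%, 14.9% and 14.8% at 28-d. The 28-d middle-dose group held the lowest single share of the 47 libraries other than control 3-d replicate 1. With the high dose, the shares were 16.2%, 18.1% and 19.6% at 3-d, 18.4%, 15.3% and 15.9% at 7-d, 18.8%, 18.5% and 17.1% at 14-d, and 19.4%, 18.8% and 18.9% at 28-d. High-dose livers at 28-d lay within the range of their controls.

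**Figure D1:**
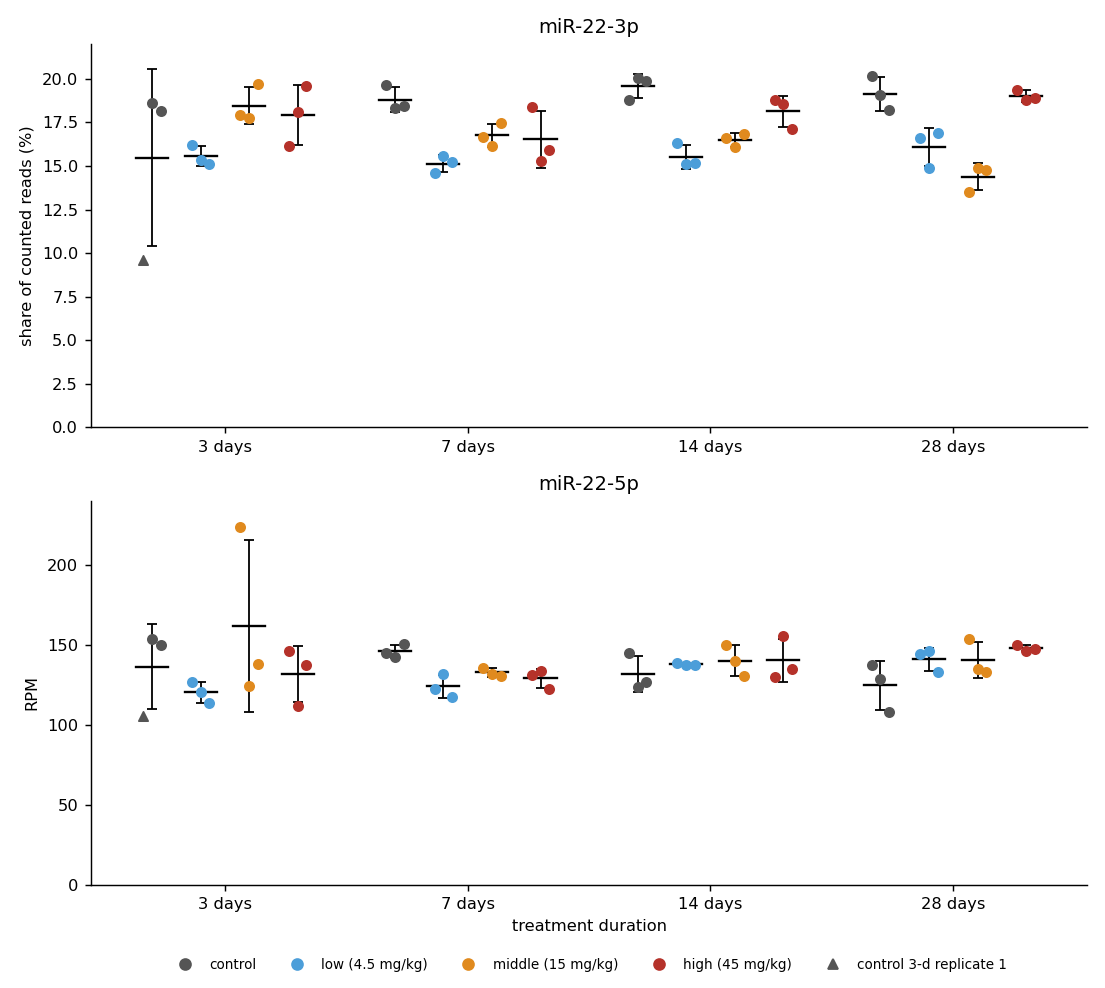
Share of counted reads (%) taken by miR-22-3p (top) and level of miR-22-5p in RPM (bottom) in each of the 48 libraries, by treatment duration and dose. Points are rats, bars are the mean and SD of 3 rats, and the triangle is control 3-d replicate 1, which at 9.60% lies below every other library for miR-22-3p, while the miR-22-5p values lie between 106 and 224 RPM.

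miR-22-5p stayed between 106 RPM (31 reads, 95% Wilson interval 74.5 to 150.0 RPM) in control 3-d replicate 1 and 224 RPM in middle-dose 3-d replicate 10. The remaining 46 libraries lay between these values. In the controls, miR-22-5p measured 106, 153 and 150 RPM at 3-d, 145, 142 and 150 RPM at 7-d, 145, 124 and 127 RPM at 14-d and 137, 129 and 108 RPM at 28-d. After upper quartile normalization, group means of normalized RPM ran from 120 ± 0.966 (SD, n = 3) with the high dose at 7-d to 165 ± 9.24 with the low dose at 14-d. For miR-22-3p they ran from 133094 ± 7225 with the middle dose at 28-d to 215916 ± 18909 in the 28-d controls. In the order of the 16 group means, each of the 15 neighbouring pairs overlapped in their individual rats, for miR-22-3p and for miR-22-5p alike.

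The comparisons of treated rats with time-matched controls asked where TAA changed either strand. miR-22-3p was lower than control at an adjusted p under 0.05 in 4 of the 12 conditions, all from 7-d on, and 1 of these, the middle dose at 28-d, passed the threshold for a differentially expressed miRNA (DEM: edgeR's quasi-likelihood test, unadjusted p below 0.05 and fold change above 1.5). At that condition the normalized level was 133094 ± 7225 RPM (SD, n = 3) in treated livers against 215916 ± 18909 RPM in controls, a 1.62-fold fall without overlap (log2 fold change -0.70, standard error (SE) 0.11, edgeR adjusted p = 0.00102). Of the 301 miRNAs tested there, 12% were called lower by the same rule. The median of all miRNAs in that comparison was 0.02, and miR-22-3p lay at percentile 8.97 of the fold changes. Relative to the median it was lower by a log2 value of -0.72, and the value was -0.72 with TMM and -0.71 with library totals alone. Without normalization beyond the library total, the median moved by 0.28, and the fold change of -0.41 no longer passed 1.5-fold (edgeR adjusted p = 0.00535).

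Smaller decreases of miR-22-3p passed an adjusted p of 0.05 in 3 further conditions. With the middle dose the log2 fold change was -0.27 at 7-d (SE 0.06, edgeR adjusted p = 0.0131) and -0.41 at 14-d (SE 0.08, edgeR adjusted p = 0.00320). With the high dose at 14-d it was -0.33 (SE 0.07, edgeR adjusted p = 0.0489). The shares of all tested miRNAs that were lower with an adjusted p under 0.05 were 12.3%, 8.31% and 0.997% in these conditions and 14.6% for the middle dose at 28-d. The high-dose 14-d value passed in none of the 10 other scalings, filters, tests and fits run (adjusted p of 0.0720 with DESeq2 size factors in edgeR to 0.934 with all 12 controls pooled). With single libraries left out it passed in 1 of 6 edgeR fits (adjusted p of 0.0325 to 0.162). The middle-dose 7-d value passed in 7 of those 10 and missed with at least 5 RPM in every library (edgeR adjusted p = 0.319), with pooled controls (0.458) and in the single 48-library fit (0.460), and also without control 7-d replicate 4 (0.0590). The middle-dose 14-d value missed with pooled controls (edgeR adjusted p = 0.581) and in the single fit (0.140).

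The other late conditions showed values below control that did not pass the adjusted threshold. For the low dose the log2 fold changes of miR-22-3p were -0.20 at 7-d (SE 0.08, edgeR adjusted p = 0.0703), -0.19 at 14-d (SE 0.09, edgeR adjusted p = 0.130) and -0.45 at 28-d (SE 0.11, edgeR adjusted p = 0.142). At 7-d the low dose passed in 5 of the 10 alternatives, with an adjusted p of 0.0497 with TMM, 0.0218 with DESeq2 size factors and 0.00275 with library size alone in edgeR. At 14-d it also passed in 5 of 10, with 0.0499, 0.0230 and 0.00455 under the same edgeR scalings. At 28-d it passed with at least 5 RPM in every library (edgeR adjusted p = 0.0290) and without low-dose 28-d replicate 29 (0.0234). For the high dose the log2 fold changes were -0.25 at 7-d (SE 0.10, edgeR adjusted p = 0.147) and -0.08 at 28-d (SE 0.09, edgeR adjusted p = 0.584). In normalized RPM, all 3 treated rats were below all 3 controls in 8 of the 12 conditions, namely every dose at 7-d and 14-d and the low and middle doses at 28-d. The share of all tested miRNAs with such a separation was 22.9%, 21.9% and 12.6% for the low, middle and high doses at 7-d, 17.3%, 17.6% and 14% at 14-d, and 17.6% and 19.6% for the low and middle doses at 28-d. Control rats were the same for the 3 doses of a time point. In read shares, without normalization, 1 high-dose rat at 7-d with 18.4% lay above the lowest control with 18.3%.

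At 3-d the treated groups overlapped their controls. The log2 fold changes of miR-22-3p were 0.22 with the low dose (SE 0.36), 0.27 with the middle dose (SE 0.39) and 0.33 with the high dose (SE 0.41), with edgeR adjusted p of 0.753, 0.907 and 0.671. Without control 3-d replicate 1 they were -0.07, -0.02 and 0.04, so that single control set the sign in the low and middle conditions.

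miR-22-5p was not called in any of the 12 conditions (edgeR), against 12.1% called higher and 5.98% called lower over all miRNAs and conditions, and 1 condition reached an unadjusted p below 0.05. Its log2 fold changes lay between -0.25 with the high dose at 7-d and 0.24 with the middle dose at 3-d. In all 3 conditions of 7-d the treated rats were below the same 3 controls without overlap in normalized RPM. So were 22.9%, 21.9% and 12.6% of all tested miRNAs with the low, middle and high doses. The middle dose at 7-d gave the lowest p, with 120 ± 1.88 RPM (SD) against 142 ± 3.59 RPM and -0.24 on the log2 scale (SE 0.09, edgeR adjusted p = 0.0672). At the middle dose and 28-d, where miR-22-3p was called lower, miR-22-5p differed by -0.11 on that scale (SE 0.18, edgeR adjusted p = 0.652).

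**Figure D2:**
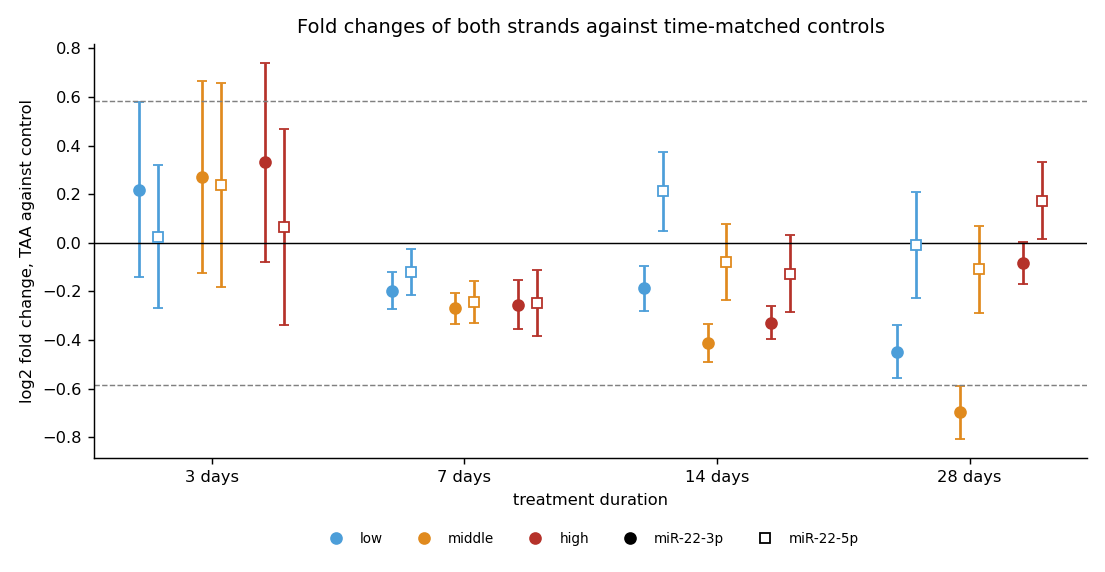
Log2 fold changes of miR-22-3p (filled circles) and miR-22-5p (open squares) in the 12 treatment conditions against time-matched controls, by treatment duration, with standard errors (SE) from edgeR (3 rats against 3). Dashed lines mark a 1.5-fold change, and only miR-22-3p with the middle dose at 28-d (-0.70) lies beyond one of them.

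Differences between doses and between time points were tested in a single edgeR fit of all 48 libraries, with p adjusted over the 301 miRNAs within each contrast. Of 12 contrasts between doses, 1 passed for miR-22-3p. At 28-d it was higher with the high than with the middle dose by a log2 value of 0.62 (SE 0.17, edgeR adjusted p = 0.0139), where 10.6% of the miRNAs passed. The normalized levels behind this were 203912 ± 4936 RPM and 133094 ± 7225 RPM. Without control 3-d replicate 1 the count of such contrasts was 2.

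Of 18 contrasts of a treatment effect between time points, 2 passed for miR-22-3p. The effect of the middle dose was lower at 28-d than at 3-d by -0.97 (SE 0.24, edgeR adjusted p = 0.0127), and 4.98% of the miRNAs passed. Without control 3-d replicate 1 this was -0.68 (edgeR adjusted p = 0.0150). The effect of the high dose was lower at 14-d than at 3-d by -0.66 (SE 0.24, edgeR adjusted p = 0.0412), where 22.3% of the miRNAs passed, but without that library it was -0.37 (edgeR adjusted p = 0.142). None of the 12 dose contrasts and none of the 18 time contrasts passed for miR-22-5p in edgeR, and 0 of either kind had an unadjusted p under 0.05.

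Between the control groups themselves, miR-22-3p was higher at 14-d than at 3-d by 0.55 (SE 0.17, edgeR adjusted p = 0.0155) and higher at 28-d than at 3-d by 0.58 (SE 0.17, edgeR adjusted p = 0.00680). These were 2 of 6 contrasts, and 20.9% and 39.5% of all miRNAs passed in them. Both rested on control 3-d replicate 1. Without it, the differences were 0.25 (edgeR adjusted p = 0.296) and 0.29 (edgeR adjusted p = 0.10), and 0 of the 6 contrasts passed.

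The average over time points asked whether a dose shifted the members at all. An exact permutation test, two-sided, with labels exchanged within time points, compared the 12 rats of a dose with the 12 controls on the log2 scale of normalized RPM. In this exact permutation test the mean difference of miR-22-3p was -0.13 for the low dose (p = 0.298, adjusted over 9 tests 0.670), -0.26 for the middle dose (p = 0.0599, adjusted 0.180) and -0.07 for the high dose (p = 0.683, adjusted 0.768), so none passed. For each of the 3 doses, 9 of 12 treated rats were below the mean of their own controls, with control 3-d replicate 1 included.

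Leaving out control 3-d replicate 1 changed that result. In the same exact permutation test miR-22-3p was then lower with the low dose by -0.23 (adjusted p = 0.00203), with the middle dose by -0.35 (adjusted p = 0.00214) and with the high dose by -0.16 (adjusted p = 0.0488). Of all 301 miRNAs, 26.6%, 18.6% and 11% were lower at an unadjusted p under 0.05 in these 3 tests. Over 7-d, 14-d and 28-d alone, the exact permutation test gave -0.28 for the low dose and -0.46 for the middle dose (p = 0.00025 in both, the smallest these permutations can give, adjusted p = 0.00113), and -0.22 for the high dose (p = 0.001, adjusted p = 0.00225). The corresponding shares of miRNAs that were lower were 24.9%, 27.6% and 12.3%. With control 3-d replicate 1 included, the contrast of the averages in the single edgeR fit passed for the middle dose over the 4 time points (-0.28, edgeR adjusted p = 0.00894), with 13.3% of miRNAs lower. Over 7-d to 28-d it passed for the low (-0.28, edgeR adjusted p = 0.0211) and middle dose (-0.46, edgeR adjusted p = 3.70e-04), with 16.9% and 13% of miRNAs lower. For the high dose over 7-d to 28-d this fit gave an edgeR adjusted p of 0.115.

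For miR-22-5p the same averages were small. Over the 4 time points they were 0.04, -0.05 and -0.03 for the low, middle and high doses, with exact permutation p between 0.650 and 0.769. Over 7-d to 28-d they were 0.03, -0.14 and -0.06, and the middle dose had an exact permutation p of 0.0518 (adjusted 0.0665).

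The ratio of the strands within a library needs no normalization. It was strongly uneven toward the 3p strand, with a median of 1273 reads of miR-22-3p for each read of miR-22-5p and a range from 802 to 1686. Among 93 hairpins with both strands tested, mir-22 ranked 4 by the size of this imbalance, whose median was 16.4-fold. On the side of an excess of 3p reads, mir-143 alone was more uneven. These are ratios of reads, and differences in the ligation of each strand into the libraries were not tested.

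**Figure D3:**
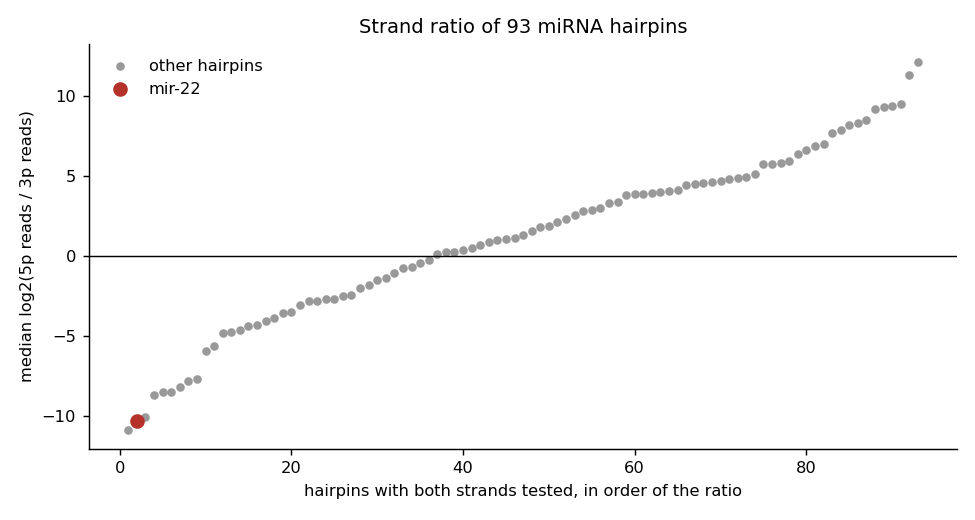
Median over 48 libraries of log2(5p reads / 3p reads) for 93 hairpins with both strands tested, ordered from the most 3p-rich to the most 5p-rich. mir-22 (red) lies second from the left at -10.3.

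Per 1000 reads of miR-22-3p, the controls held 1.10, 0.824 and 0.825 reads of miR-22-5p at 3-d, 0.739, 0.777 and 0.816 at 7-d, 0.770, 0.617 and 0.637 at 14-d, and 0.682, 0.673 and 0.593 at 28-d. The highest of these, again, was control 3-d replicate 1. Treated rats at 28-d held 0.870, 0.983 and 0.787 with the low dose, 1.14, 0.907 and 0.898 with the middle dose and 0.774, 0.779 and 0.780 with the high dose. All 9 treated rats at 28-d were therefore above all 3 controls of that time point. At 14-d the low dose (0.851, 0.911 and 0.907) and the middle dose (0.901, 0.870 and 0.774) were above their controls too, while the high dose (0.693, 0.840 and 0.790) overlapped them. Of the 93 hairpins, 11.8%, 24.7% and 20.4% lay above their controls without overlap for the low, middle and high doses at 28-d, and 32.3% and 25.8% for the low and middle doses at 14-d. The 3-d and 7-d groups overlapped their controls, except that the low dose at 3-d (0.780, 0.784 and 0.753) lay below them, as 17.2% of hairpins did. The highest ratio of all, 1.25, was that of middle-dose 3-d replicate 10, the library with the most miR-22-5p.

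**Figure D4:**
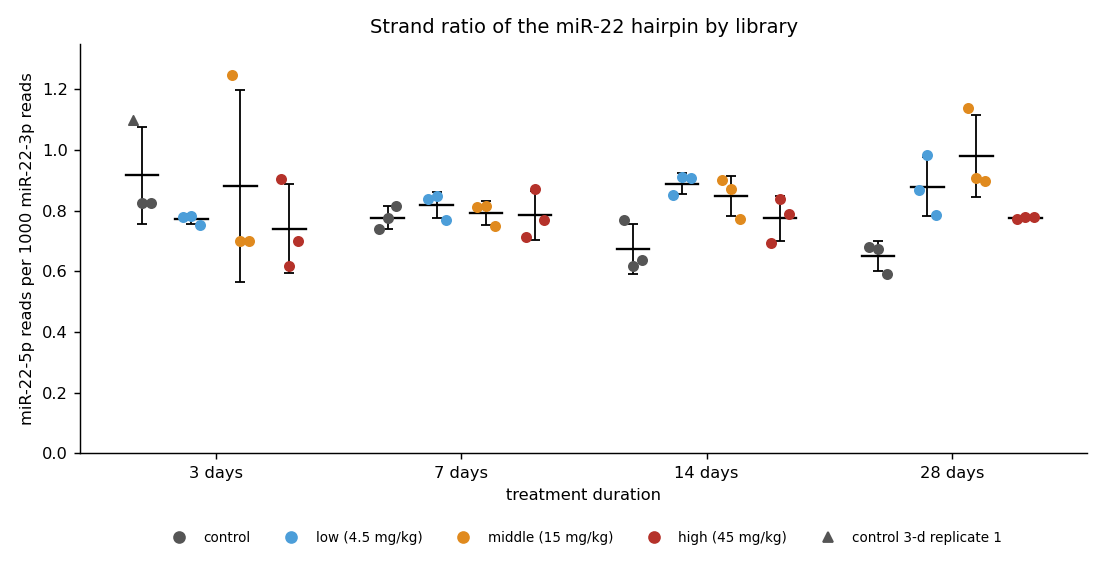
Reads of miR-22-5p per 1000 reads of miR-22-3p in each library, by treatment duration and dose, with the mean and SD of 3 rats (bars) and control 3-d replicate 1 as a triangle. At 28-d the 9 treated rats lie between 0.774 and 1.14, above the 3 controls, which lie between 0.593 and 0.682.

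Averaged over the 4 time points, the log2 strand ratio was higher than control by 0.17 for the low dose (exact permutation p = 0.0524, adjusted 0.180), 0.21 for the middle dose (p = 0.0575, adjusted 0.180) and 0.04 for the high dose (p = 0.643, adjusted 0.768), none of which passed. Without control 3-d replicate 1, the exact permutation test gave 0.20 for the low dose (adjusted p = 0.0149) and 0.25 for the middle dose (adjusted p = 0.0488), where 35.5% and 18.3% of hairpins shifted toward 5p at an unadjusted p under 0.05. For the high dose the same exact permutation test gave 0.08 (adjusted p = 0.355) and did not pass. Over 7-d to 28-d the exact permutation test gave 0.30 (adjusted p = 0.00225), 0.32 (adjusted p = 0.0045) and 0.16 (adjusted p = 0.0345) for the low, middle and high doses. The log2 ratio is the log2 level of miR-22-5p minus that of miR-22-3p in the same rats. Its shift is therefore not independent of the fall of miR-22-3p above. Shifts toward the 5p strand at an unadjusted p under 0.05 were common among the 93 hairpins, at 31.2%, 25.8% and 19.4% for these doses over 7-d to 28-d. In size, 73, 54 and 80 hairpins had a larger absolute shift over the 4 time points than mir-22 for the low, middle and high doses, with control 3-d replicate 1 included.

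The strands of the hairpin were moderately alike across libraries, with Pearson r of 0.62 and Spearman rho of 0.58 over 48 libraries and r of 0.49 without control 3-d replicate 1. As a description over the same libraries, which share their normalization, the 5 miRNAs most like miR-22-3p were miR-30b-5p (r = 0.87), miR-26a-5p (0.86), miR-26b-3p (0.83), miR-194-5p (0.83) and miR-30d-3p (0.77). Without control 3-d replicate 1, r for these was 0.79, 0.81, 0.72, 0.72 and 0.61, and they ranked 4, 3, 7, 6 and 17, so that 3 of the 5 left the set. For miR-22-5p the most alike were miR-24-3p (r = 0.72), miR-30a-3p (0.67), miR-26b-5p (0.67), miR-30e-5p (0.61) and miR-143-3p (0.60). Without that library r for these was 0.64, 0.61, 0.56, 0.52 and 0.49, and they ranked 1, 2, 4, 8 and 14. With all 48 libraries, no miRNA was in both sets.

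A list of miRNAs linked to p53, the tumour suppressor that responds to DNA damage, gave a background for miR-22. Of 17 such miRNAs, 12 were tested, and in 144 comparisons 19 were called higher and 5 lower, with a median log2 fold change of 0.03. miR-34a-5p, a direct transcriptional target of p53, was called higher in all 12 conditions and so gave 12 of the 19 higher calls. Over all 3612 comparisons of tested miRNAs, 12.1% were called higher and 5.98% lower, with a median of 0.06.

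Markers of other cell types were read beside the falls of miR-22-3p. Of the red blood cell list, 4 of 5 miRNAs were tested, and in 48 comparisons 20 were called lower and 1 higher, with a median log2 fold change of -0.59. These were 41.7% lower and 2.08% higher, against 5.98% and 12.1% over all tested miRNAs and conditions. The 3-d comparisons in these list counts include control 3-d replicate 1. At 28-d the summed red blood cell level was 2786 to 4642 RPM in controls and 1677 to 3394 RPM with the middle dose. The hepatocyte sum there was 290374 to 315223 RPM in controls and 326760 to 352822 RPM with the middle dose, so the sum was higher with the middle dose. The median log2 fold change over the 6 hepatocyte miRNAs, a different measure from their sum, went the other way. On the upper quartile scale it was -0.39 against 0.02 over all tested miRNAs, and 2 of the 6 were called lower and 0 higher. With library totals alone, as in RPM, this median was also negative, at -0.12 against 0.30. Leukocyte markers were at 4675 to 5839 RPM in controls and 5883 to 7666 RPM with the middle dose. The part of these cell types in the change of miR-22-3p was not tested. Over the 12 conditions, calls were 4 higher and 6 lower in 72 comparisons for the hepatocyte list and likewise for the leukocyte list, 6 and 7 in 60 for stellate or smooth muscle cells, 5 and 8 in 60 for bile duct epithelium, 4 and 3 in 36 for brain or pancreas, and 0 and 4 in 12 for skeletal or heart muscle, of which 1 of 6 miRNAs was tested and miR-208a-3p had no reads. In the same order the shares were 5.56% higher and 8.33% lower for the first 2 lists, then 10% and 11.7%, 8.33% and 13.3%, 11.1% and 8.33%, and 0% and 33.3%. Over all tested miRNAs they were 12.1% and 5.98%.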

How the data were processed

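Liver small RNA from 48 rats was sequenced on an Illumina HiSeq2000, with 3 rats in each of 16 groups. The authors trimmed adaptors, kept reads within a length window, mapped them to miRBase release 21 and deposited raw counts from the miRDeep2 pipeline, whose version is not given in the sources used here. The submitters' processing notes name rn5 and FastQC. The 48 barcoded libraries were pooled for sequencing, and the deposited counts were neither normalized nor pooled over rats. Of 847 count lines, 764 were different mature miRNAs. For 71 of these with several precursors, the precursor with the most reads was used.

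The 301 miRNAs with at least 5 RPM in at least 3 libraries were tested with edgeR 4.0.16 (quasi-likelihood test, upper quartile normalization, 3 libraries against 3), and p-values were adjusted by the Benjamini-Hochberg method over all of them. Contrasts between groups came from a single fit of the 48 libraries. Averages over time points were tested by exact permutation within time points (160000 permutations, or 8000 over 7-d, 14-d and 28-d), with 0.5 added to each count of the strand ratio and 1 RPM added to levels where correlations were taken. A single condition of 3 against 3 cannot go below p = 0.1 by permutation. The edgeR and DESeq2 tests of 3 against 3 were checked on simulated counts in the layout of the middle dose at 28-d and its controls. The permutation tests and the single fit of the 48 libraries were not checked in this way. Genes named in the text are the 2 strands, the 5 miRNAs most correlated with each, the most often called member of the list of miRNAs linked to p53, and the markers. A further list is not reported here. The hairpin mir-143, miR-208a-3p, the abundant miRNAs and the gene neighbours were named after their values were seen. Members, lists and tests were chosen with earlier results of these data known. DESeq2 1.42.0 served as an alternative. Sequences were matched by name for 270 of the 301 tested miRNAs. In control 3-d replicate 1 a count of 3, the limit of detection, is 10.2 RPM, and in control 3-d replicate 2 it is 0.325 RPM.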

Additional observations from a re-analysis of the deposited data

Results flagged for a closer look

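Treatment effects on miR-22-3p differed between groups in 3 tested contrasts of the single 48-library edgeR fit. At 28-d the high dose was above the middle dose by a log2 value of 0.62. The effect of the middle dose at 28-d minus its effect at 3-d was -0.97. The effect of the high dose at 14-d minus its effect at 3-d was -0.66. The last of these was lost without control 3-d replicate 1, which held 98080 RPM of red blood cell miRNAs, and the part of that signal was not tested.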

How the results depend on the processing

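The call of miR-22-3p with the middle dose at 28-d held with TMM, with DESeq2 size factors, with no filter, in edgeR's exact test, in DESeq2's Wald test, in the single 48-library fit and with any of its 6 libraries left out (-0.74 to -0.62). The number of called conditions fell from 1 to 0 with library size alone (-0.41), with library size without the miR-22 reads (-0.49), with at least 5 RPM in every library (-0.55) and with all 12 controls pooled (-0.50). The number of conditions with miR-22-3p lower at an adjusted p under 0.05, 4 in the report, was 0 with pooled controls and 1 in the single fit, and 3 to 5 when single libraries were left out. For miR-22-5p it was 1 instead of 0 with DESeq2 size factors, with library size without the miR-22 reads and in DESeq2's Wald test.

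The following values changed sign, and none of them passed the threshold in the report. For miR-22-3p with the low dose at 3-d the value was -0.012 with DESeq2 size factors and in DESeq2's Wald test, -0.011 with library size without the miR-22 reads, -0.17 with pooled controls and -0.074 to 0.45 with single libraries left out. Pooled controls also gave -0.11 and -0.053 for the middle and high doses at 3-d and 0.11 for the high dose at 28-d, and leaving out single libraries gave -0.022 to 0.51 for the middle dose at 3-d. For miR-22-5p the middle dose at 28-d gave 0.17 with library size alone, 0.087 with library size without the miR-22 reads, 0.047 with at least 5 RPM in every library and -0.21 to 0.0060 with single libraries left out. The low dose at 14-d gave -0.0044 with library size without the miR-22 reads and -0.011 with no filter.

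For averages over the 4 time points, the exact permutation test of miR-22-3p passed with DESeq2 size factors for the low (-0.21) and middle dose (-0.32). Leaving out single libraries gave -0.23 to -0.071, -0.35 to -0.20 and -0.16 to -0.0062 for the low, middle and high doses, where control 3-d replicate 1 gave the lowest value and the sole passes, and strand ratios of 0.15 to 0.20, 0.14 to 0.25 and 0.00071 to 0.076. Without 3-d, an alternative added after the data were seen, the levels were -0.28, -0.46 and -0.22 and the ratios 0.30, 0.32 and 0.16, and all 6 passed. The ratios were not independent of these levels, which came from the same rats. For miR-22-5p, which passed nowhere, the low dose gave -0.010 with TMM and -0.038 with DESeq2 size factors and with library size alone, library size alone gave 0.084 and 0.029 for the middle and high doses, and leaving out single libraries gave -0.021 to 0.079, -0.10 to 0.0027 and -0.086 to 0.021. The contrast of these averages in the single edgeR fit was also added later.

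The number of passing dose contrasts of miR-22-3p was 0 with no filter and 2 without control 3-d replicate 1. Time contrasts numbered 1 with TMM, with library size alone, with no filter and without that library. Control contrasts numbered 1 with no filter and 0 without it. Causes were not tested. No paired analysis was possible because the replicate numbers run from 1 to 48 and no groups share one.

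Library totals alone moved the median of the tested miRNAs by -0.21 to 0.28 over the 12 conditions against upper quartile normalization. With 31 to 2182 reads, miR-22-5p was measured less precisely than miR-22-3p, and with 3 rats a group small changes of it could be missed.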
